A study of Mus musculus with 6 samples.

Results

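Solute carriers (SLC) are membrane proteins that move small molecules across the plasma membrane and the membranes of organelles. Genes that encode them were read from the comparison of siCon- and siH19-transfected myotubes. The siH19 reagent is a short interfering RNA against H19, a long non-coding RNA, and siCon is the control siRNA. The members were taken by symbol alone, as every listed feature whose gene symbol begins with Slc and a number, or with Slco. This rule found 37 of the 3019 features in the authors' deposited table, and 35 of them are carriers from 19 families. The other 2, Slc9a3r1 and Slc9a3r2, carry an Slc symbol because they bind a sodium and proton exchanger, and are scaffold proteins, not carriers. None of the 37 features carries a second gene symbol.

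The cells were C3H myoblasts, a mouse line that fuses into multinucleated myotubes in differentiation medium. Both groups had differentiated for 40 h when they were transfected, with siCon in one and siH19 in the other, and both were harvested 48 h later, on day 4, with 3 libraries in each group. Total RNA depleted of ribosomal RNA was sequenced, and the authors' deposited table holds 1 pooled value per group, the log2 of FPKM (fragment counts divided by transcript length and by sequencing depth). The table lists only features that the authors called as different, so a gene that is not listed may be unchanged, too low to test or not expressed. No spread between the libraries and no depth can be had from pooled values, and every difference below is therefore a description with no test, with a rounding error of up to 0.01 on the log2 scale. H19 itself (chromosome 7, 142575490 to 142578146) was at a siCon log2 FPKM of 11.20 and a siH19 log2 FPKM of 7.50, which leaves 7.69% of the control level. Of 16 markers of skeletal myotubes, 12 are listed, in 10 features with siCon log2 FPKM between 6.07 and 11.30. All 10 features were higher in siH19 (median log2 difference 0.71), as were 62.8% of all listed features. Once each difference is lowered by 0.41, the median of listed features with a symbol, 9 of 10 stayed higher, without Chrna1. Such a lowering can turn only differences between 0.31, the smallest listed, and 0.41. The markers include Myog, a transcription factor of differentiation (7.79 against 9.22), Mb, which encodes myoglobin (7.61 against 8.95), and Chrna1, a subunit of the acetylcholine receptor (8.22 against 8.60). Of the markers of other cells, only Col1a1 of 7 fibroblast genes (4.81 against 5.22) and Runx2 of 8 bone and cartilage genes (1.61 against 2.23) are listed, the former not higher after that lowering, and none of 5 adipocyte, 5 blood or 4 endothelial genes is. The part of this marker shift in the SLC values was not tested. In a bulk culture, a change in the share of fused cells and a change in RNA per cell cannot be told apart.

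Carriers set what a muscle fibre can take up and release. They bring in amino acids, taurine, vitamins and choline from the medium, pass adenine nucleotides and acylcarnitines across the inner mitochondrial membrane, feed sugar donors into the Golgi and hold the concentrations of chloride, protons, zinc and magnesium. Many families are large, with members that share a fold but differ in substrate, tissue and compartment.

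Listed SLC features were divided almost evenly by direction. In siH19, 18 were higher and 19 lower, or 48.6% higher, against 62.8% higher among all 3019 listed features (37.2% lower). With a difference of at least 1.5-fold, 11 SLC features were higher (29.7%, against 37.4% of all listed features) and 8 lower (21.6%, against 16.9%), but with a pseudocount of 1 FPKM, which shrinks the differences of low features, 7 were higher and 3 lower (673 and 203 of all listed features). At least 2-fold, 6 were higher (16.2%, against 16.9% of all listed features) and 1 lower (2.70%, against 6.09%). The median log2 difference was -0.34 over the SLC features and 0.45 over all listed features. Because no listed feature differs by less than 0.31, the values fall into a higher and a lower arm with nothing between, and the median of the SLC features lies at the edge of the lower arm. By size, the median over the 18 higher members was 0.68, the same as the 0.68 of all higher features, and that over the 19 lower members was -0.44, against -0.56 of all lower features. The shift of 0.41 is the median of features already called as different and no estimate of a shift over all genes, and lowering by it can turn only differences between 0.31 and 0.41, which among the 18 higher members is Slc35b2 alone. With every difference lowered by it, 6 SLC features were at least 1.5-fold higher and 19 lower, and among all listed features 511 were higher and 1123 lower. These lower counts are those of every lower feature, since a shift of that size takes each of them past the cut-off.

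**Figure D1:**
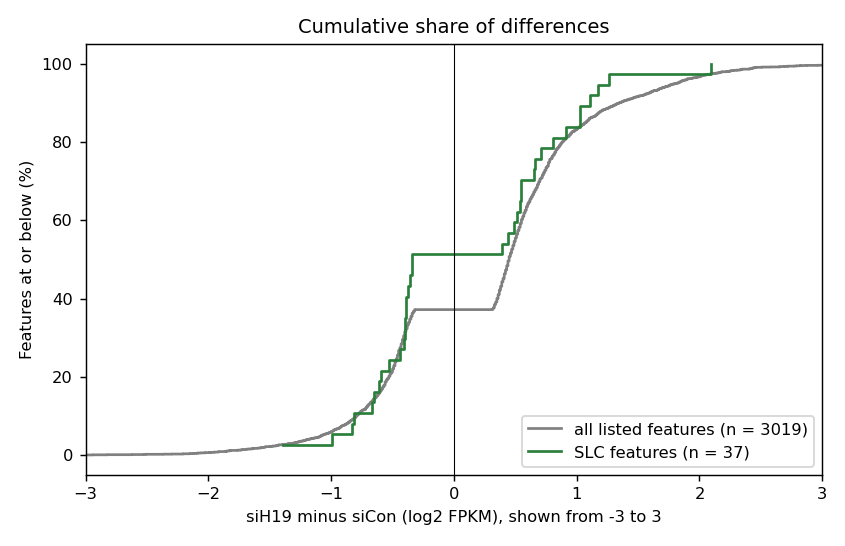
Share of features (y axis, %) at or below each difference between siH19 and siCon (x axis, log2 FPKM), for the 37 SLC features and all 3019 listed features, drawn from -3 to 3. Both curves are flat around 0 because the smallest listed difference is 0.31, and the flat part lies at 51.4% for the SLC features and 37.2% for all listed features.

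Slc44a4 showed the largest difference of any SLC feature. It encodes a choline transporter-like protein that carries thiamine pyrophosphate, and is on the plus strand of chromosome 17 (34914255 to 34930436), where its longest annotated transcript has 20 exons. Its log2 FPKM was 1.05 with siCon and 3.14 with siH19, a log2 difference of 2.09 or 4.26-fold. The next members on the higher side were Slco5a1 at 1.26, Slc5a6 at 1.17, Slc44a3 at 1.11, Slc7a5 and Slc4a3 at 1.03 each, and Slco4a1 at 0.91. On the lower side, Slc17a7 led with a log2 difference of -1.39, followed by Slc7a4 at -0.99. Slc17a7 encodes a vesicular glutamate transporter known from excitatory neurons (chromosome 7, 45163921 to 45176139, plus strand), and its log2 FPKM was 0.54 in siCon and -0.85 in siH19, or 2.62-fold lower. Several of these large differences stood on low levels. Slc44a3 and Slco4a1 were below 1 FPKM in both groups, Slco5a1 was below it in siCon, and Slc17a7 and Slc7a4 were below it in siH19.

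Because the study concerned DNA methylation, the CpG sites in front of these genes are shown for the Slc44 pair, the family with the largest differences on the higher side, and for Slc17a7 and Slc16a4, the lower carriers with the largest differences among those with an entry. The sequences are the 250 bases before the annotated transcription start (RefSeq, GRCm38.p6), written from 5′ to 3′ on the strand of the gene, with each CpG in capitals. Slc44a4 lies on the plus strand (chr17:34914216-34914465), Slc44a3 on the minus strand (chr3:121532345-121532594), Slc17a7 on the plus strand (chr7:45163671-45163920) and Slc16a4 on the plus strand (chr3:107290980-107291229).
Slc44a4: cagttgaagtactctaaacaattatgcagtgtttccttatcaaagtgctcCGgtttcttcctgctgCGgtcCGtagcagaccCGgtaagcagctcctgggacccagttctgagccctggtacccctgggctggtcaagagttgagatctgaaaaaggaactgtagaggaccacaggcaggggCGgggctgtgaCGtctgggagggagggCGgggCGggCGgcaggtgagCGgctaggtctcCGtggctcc
Slc44a3: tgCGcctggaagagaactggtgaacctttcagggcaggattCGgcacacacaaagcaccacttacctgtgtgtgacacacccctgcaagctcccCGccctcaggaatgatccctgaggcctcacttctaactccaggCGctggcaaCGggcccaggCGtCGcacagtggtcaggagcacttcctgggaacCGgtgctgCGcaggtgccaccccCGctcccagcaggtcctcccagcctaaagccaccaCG
Slc17a7: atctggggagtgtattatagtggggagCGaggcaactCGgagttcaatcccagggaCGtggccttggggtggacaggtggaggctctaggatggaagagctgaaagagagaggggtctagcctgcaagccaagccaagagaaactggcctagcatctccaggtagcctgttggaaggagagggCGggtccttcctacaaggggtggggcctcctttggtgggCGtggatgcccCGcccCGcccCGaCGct
Slc16a4: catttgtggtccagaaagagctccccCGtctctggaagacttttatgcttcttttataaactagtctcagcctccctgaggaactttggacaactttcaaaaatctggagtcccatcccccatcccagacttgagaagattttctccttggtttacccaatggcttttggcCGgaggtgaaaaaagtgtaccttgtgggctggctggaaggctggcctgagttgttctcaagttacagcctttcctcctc
Both Slc44 windows hold 11 CpG sites, Slc17a7 holds 9 and Slc16a4 holds 2, the fewest of any lower member, while the scaffold Slc9a3r1, lower by a similar size, holds 20. In all, 28 of the 37 members have an entry, with 35 windows. The number of CpG sites per window ranged from 0 in front of a start of Slc39a5 to 40 at Slc30a4, with a median of 17 over the 35 windows and of 10 over the 21255 windows of protein-coding genes. Windows of higher members had a median of 14 (18 windows, 0 to 22), and those of lower members a median of 18 (17 windows, 2 to 40), so the ranges overlapped widely. The GC box GGGCGG, searched on both strands, was in 25 of the 35 windows (71.4%) and in 42.6% of the windows of protein-coding genes. It was in 72.2% of the windows of higher and 70.6% of those of lower members. CAGCTG, an E-box that reads the same on both strands, was in 3 windows (8.57%), those of a start of Slc5a6, a start of Slco4a1 and Slc4a8, against 12.1% of the windows of protein-coding genes. The windows of protein-coding genes include those of genes not listed here, and no background of listed or expressed genes was computed. Members with several starts enter once per window, and the windows of Slc12a7 overlap. These matches describe the letters only, and methylation of these windows was not analysed here.

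Of 8 listed amino acid carriers, 3 were higher and 5 lower, beside 62.8% higher and 37.2% lower among all listed features. Slc7a5 encodes the light chain of the main exchanger of large neutral amino acids, which supplies leucine and other essential amino acids. On chromosome 8 (121881146 to 121907686, minus strand), it was at a siCon log2 FPKM of 4.03 and a siH19 log2 FPKM of 5.06, or 2.04-fold higher, from 16.3 to 33.4 FPKM. Its locus lies within the annotated gene Gm20388 on the opposite strand, and shared reads were not tested. Slc7a2, a carrier of cationic amino acids such as arginine (chromosome 8, 40862367 to 40922070, plus strand), was at 1.00 and 1.66, or 1.58-fold higher. The taurine carrier Slc6a6, which gives muscle its high taurine content, was at 7.13 and 7.68, a log2 difference of 0.55. Its siCon level is above that of 96.8% of all listed features, which makes it the second most abundant SLC feature listed. The lower members were Slc17a7, given above, and 4 others. Slc7a4, a relative of the cationic amino acid carriers, was at 0.21 and -0.78, or 1.99-fold lower. Slc43a2, which moves large neutral amino acids by facilitated diffusion, was at 2.92 and 2.33 (chromosome 11, 75530599 to 75577731, plus strand), or 1.51-fold lower. Slc6a19, the sodium-coupled carrier of neutral amino acids known from gut and kidney, was at 1.91 and 1.5. Slc38a9, a lysosomal carrier that reports arginine to the mTOR pathway, was at 2.18 and 1.84. Carriers for large neutral amino acids were listed on both sides, with Slc7a5 higher and Slc43a2 lower. The difference of -0.59 for Slc43a2 lies at the 1.5-fold cut-off (0.585 on the log2 scale) to within rounding.

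The listed locus of Slc7a4 (chromosome 16, 17561885 to 17576671) is also the locus of P2rx6, a gene for an ATP-gated ion channel on the opposite strand, and begins 10133 bp before the annotated Slc7a4 gene and ends 6543 bp before the end of that gene. P2rx6 is listed as a feature of its own, at a siCon log2 FPKM of 2.37 and a siH19 log2 FPKM of 1.23, a log2 difference of -1.14. The libraries were made with a stranded kit, but whether the authors' mapping and counting used the strand is not given in the sources used here, so that shared reads between these genes were not tested.

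Of 4 listed vitamin and choline carriers, 3 were higher and 1 lower, each by at least 1.5-fold, where 37.4% of all listed features were higher and 16.9% lower by that much. Slc5a6 takes up biotin and pantothenate, the precursor of coenzyme A, together with sodium, and was at a siCon log2 FPKM of 1.65 and a siH19 log2 FPKM of 2.82, or 2.25-fold higher. The listed locus of Slc5a6 (chromosome 5, 31035943 to 31078680) extends 29756 bp past the annotated gene and spans Atraid and Cad, both on the opposite strand. Slc44a3, a choline transporter-like protein (chromosome 3, 121459528 to 121532344, minus strand), was at -1.68 and -0.57, or 2.16-fold higher, and is the least abundant SLC feature listed in siCon. Together with Slc44a4, 2 of the 5 protein-coding Slc44 genes in the annotation are listed, both higher, as were 62.8% of all listed features. Slc19a2, a thiamine carrier on chromosome 1 (164249046 to 164265385, plus strand), went the other way, at 2.46 in siCon and 1.79 in siH19, or 1.59-fold lower. For thiamine and its pyrophosphate ester, the listed carriers were in opposite directions.

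**Figure D2:**
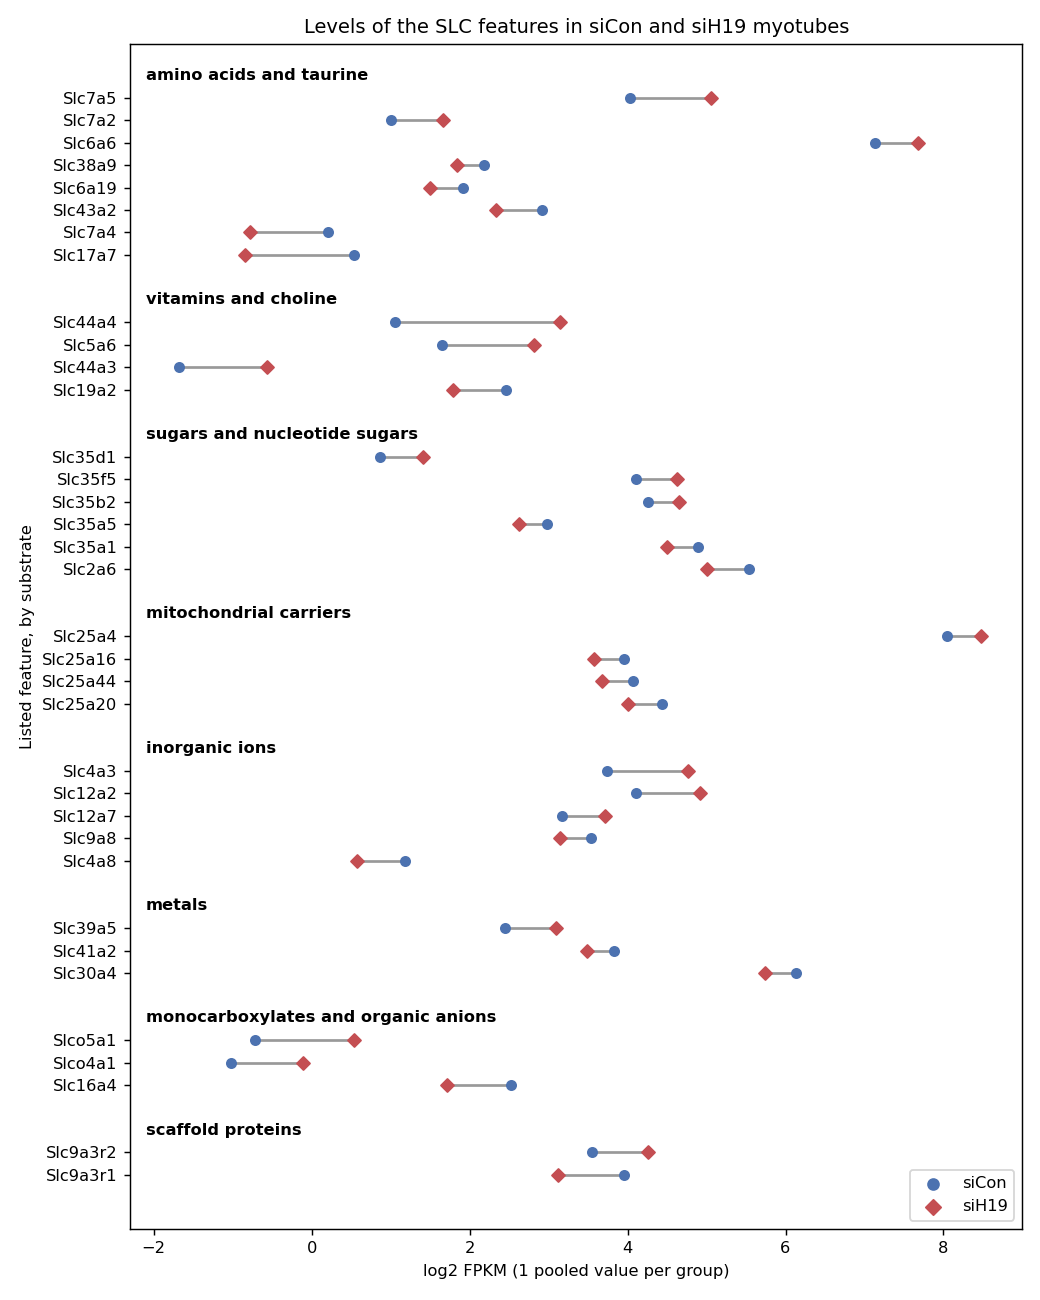
Pooled log2 FPKM (x axis) of the 35 SLC features given by name in siCon (circles) and siH19 (diamonds), grouped by substrate (y axis), with 1 value per group and no error. Slc25a4 and Slc6a6 are the most abundant, and the widest gap is that of Slc44a4, from 1.05 to 3.14.

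Of 6 listed carriers for sugars and nucleotide sugars, 3 were higher and 3 lower, and none reached 1.5-fold, where 37.4% of all listed features were higher and 16.9% lower by that much. Slc2a6, a member of the glucose transporter family, was at a siCon log2 FPKM of 5.54 and a siH19 log2 FPKM of 5.01, a log2 difference of -0.53. It is the only one of 12 annotated protein-coding Slc2 genes that is listed, so Slc2a1 and the insulin-responsive Slc2a4 are not among the listed features. The Slc35 family carries nucleotide sugars and sulfate donors into the Golgi and the endoplasmic reticulum for glycosylation, and 5 of its 27 genes are listed. Slc35a1, which carries CMP-sialic acid, was at 4.89 and 4.50, and its relative Slc35a5 at 2.98 and 2.62. Higher in siH19 were Slc35b2, which carries the sulfate donor PAPS (4.26 against 4.65, no longer higher after the lowering by 0.41), Slc35d1, a carrier of UDP-sugars (0.86 against 1.41), and Slc35f5 (4.11 against 4.62).

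Mitochondrial carriers included the most abundant SLC feature listed. Slc25a4, the ADP and ATP exchanger of heart and muscle, was at a siCon log2 FPKM of 8.04 and a siH19 log2 FPKM of 8.48, from 263 to 357 FPKM, a log2 difference of 0.44. In the other direction were Slc25a20, which brings acylcarnitines in for fatty acid oxidation (4.44 against 4.00), Slc25a44, a carrier of branched-chain amino acids (4.07 against 3.67), and Slc25a16, linked to coenzyme A (3.95 against 3.58). In all, 4 of 47 annotated Slc25 genes are listed, 1 higher and 3 lower, beside 62.8% and 37.2% of all listed features, and none reached the 1.5-fold at which 37.4% were higher and 16.9% lower.

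Of 6 carriers of inorganic ions, 4 were higher and 2 lower in siH19, close to the 62.8% higher among all listed features. Slc4a3, which exchanges chloride for bicarbonate in excitable cells such as heart muscle (chromosome 1, 75545975 to 75560890, plus strand), was at a siCon log2 FPKM of 3.74 and a siH19 log2 FPKM of 4.77, or 2.04-fold higher. Slc12a2, which takes up sodium, potassium and chloride together (chromosome 18, 57878678 to 57946821, plus strand), was at 4.11 and 4.92, or 1.75-fold higher. Its relative Slc12a7, which lets potassium and chloride out, was also higher, at 3.17 and 3.71. Both cotransporters were higher although they move chloride in opposite directions. Slc9a8, an exchanger of sodium and protons, was lower at 3.54 and 3.14. Slc4a8, which drives bicarbonate in with sodium in exchange for chloride (chromosome 15, 100761747 to 100823971, plus strand), was at 1.18 and 0.57, or 1.53-fold lower. The listed bicarbonate carriers of the Slc4 family were in opposite directions.

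Among the metal carriers, Slc39a5, which brings zinc into the cytosol (chromosome 10, 128395271 to 128401224, minus strand), was at a siCon log2 FPKM of 2.45 and a siH19 log2 FPKM of 3.10, or 1.57-fold higher. Its locus lies within the annotated gene Ankrd52 on the opposite strand, and the listed feature of Ankrd52, whose locus ends 62 bp away, was at 3.26 and 3.78, in the same direction. Slc30a4, which moves zinc out of the cytosol into vesicles, was lower, at 6.13 and 5.74, and the magnesium carrier Slc41a2 was at 3.83 and 3.49. For zinc, the listed importer was higher and the listed carrier out of the cytosol lower, the latter by a log2 difference of -0.39.

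Among carriers of monocarboxylates and other organic anions, Slc16a4, of the monocarboxylate transporter family (chromosome 3, 107291242 to 107312116, plus strand), was at a siCon log2 FPKM of 2.52 and a siH19 log2 FPKM of 1.71, or 1.75-fold lower. Both listed Slco genes, of 14 annotated, were higher, as were 62.8% of all listed features. Slco5a1 (chromosome 1, 12866515 to 12992721, minus strand) was at -0.72 and 0.54, or 2.39-fold higher, and Slco4a1, which can carry thyroid hormone (chromosome 2, 180456255 to 180474853, plus strand), was at -1.02 and -0.11, or 1.88-fold higher.

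The scaffold proteins with an Slc symbol differed in opposite directions. Both hold PDZ domains that tether carriers and receptors to ezrin and the actin cytoskeleton. Slc9a3r1 (chromosome 11, 115163341 to 115181178, plus strand) was at a siCon log2 FPKM of 3.95 and a siH19 log2 FPKM of 3.12, or 1.78-fold lower. Slc9a3r2 (chromosome 17, 24639250 to 24650315, minus strand) was at 3.55 and 4.26, or 1.64-fold higher. Levels of the pair therefore changed order, with Slc9a3r1 the higher in siCon and Slc9a3r2 the higher in siH19.

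**Figure D3:**
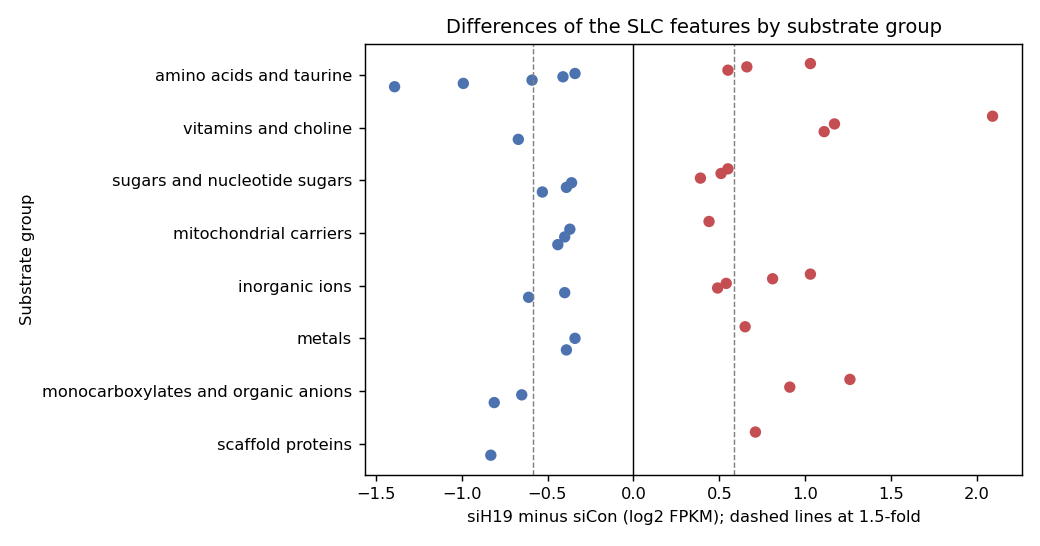
Difference between siH19 and siCon (x axis, log2 FPKM) of each SLC feature by substrate group (y axis), red where higher and blue where lower in siH19, with dashed lines at 1.5-fold. Sugar and mitochondrial carriers all lie inside the dashed lines, and Slc44a4 in the vitamin and choline group lies farthest out at 2.09.

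By family, 11 of the 20 symbol families (the scaffolds counted as 1) had several listed members. In 7 of these the members lay on both sides, among them Slc4, Slc6, Slc7, Slc25, Slc35 and the scaffolds. In the other 4, each with only 2 listed members, the members had the same direction, higher in Slc12, Slc44 and Slco and lower in 1 family. Of 385 protein-coding genes whose symbol matches the rule in the GENCODE annotation of GRCm38, 37 (9.61%) are listed, against 2423 of all 21924 protein-coding symbols (11.1%). The features lie on 17 chromosomes, and both ends of the listed locus were within 1000 bp of the annotated gene for 30 of the 37. The exceptions are Slc4a3, Slc5a6, Slc6a6, Slc6a19, Slc7a4, Slc12a7 and Slc43a2.

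At the 1.5-fold cut-off, the nearest members outside were Slc6a6 and Slc35d1 at 0.55 and Slc12a7 at 0.54, and the nearest inside were Slc43a2 at -0.59 and Slc4a8 at -0.61.

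Genes that work with the carriers were read from 5 further lists. Many SLC proteins are driven by the sodium gradient that the Na,K-ATPase maintains. Of 45 annotated P-type ATPases and their subunits, 10 are listed, and 9 of these were at least 1.5-fold higher in siH19 (median log2 difference over the 10, 1.12), where 37.4% of all listed features were. Atp1b1, a beta subunit of the Na,K-ATPase, was at a siCon log2 FPKM of 2.25 and a siH19 log2 FPKM of 4.31, or 4.17-fold higher. Atp1b2, another beta subunit, was at -2.18 and -0.80, and Atp13a5 was at -3.11 and -1.1. Both were below 1 FPKM in both groups. The calcium pump of the sarcoplasmic reticulum Atp2a2 was at 7.13 and 8.18. The exception was Atp2b4, a calcium pump of the plasma membrane, at 3.39 and 2.83. The myotube markers were also higher, and their part in the ATPase values was not tested.

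Of 35 symbols for carriers that lack an Slc symbol, some of them aliases of the same gene, 9 are listed and all 9 were higher, 5 of them by at least 1.5-fold, beside 62.8% higher and 37.4% at least 1.5-fold higher among all listed features. The largest difference was that of Ucp3, an uncoupling protein of muscle mitochondria, at -2.14 in siCon and -0.67 in siH19. Next was Mfsd7c, at -2.61 and -1.32, and both genes were below 1 FPKM in both groups. Ucp2 was at 3.39 and 4.09, and Xpr1, a phosphate exporter, at 3.51 and 4.10. Lowered by the shift of 0.41, which can turn only differences between 0.31 and 0.41, 8 of the 9 stayed higher, and Sfxn3 did not. Among chaperones and regulators of carriers, 6 of 22 are listed, 4 higher and 2 lower, each by at least 1.5-fold, where 37.4% of all listed features were higher and 16.9% lower by that much (62.8% and 37.2% at any size). The kinase Wnk1, which controls Slc12 cotransporters, was at 5.68 and 6.48, beside the higher values of Slc12a2 and Slc12a7. Tbc1d1, which controls glucose carrier traffic in muscle, was at 5.49 and 6.16. Txnip, a brake on glucose uptake, was at 5.43 and 4.71. Ezr encodes ezrin, to which both Slc9a3r scaffolds tether. It was at 5.53 and 4.87, lower like Slc9a3r1 and opposite to Slc9a3r2. Its relative Rdx was at 5.02 and 5.84. Pdzk1, with the largest difference of this list, was at 1.33 and 2.27.

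Slc7a5 is a known target of the amino acid response, in which the transcription factor ATF4 turns on genes for amino acid supply. Of 28 genes of that response, 9 are listed, 5 higher (3 of them by at least 1.5-fold) and 4 lower (none by 1.5-fold), beside 62.8% higher and 37.4% at least 1.5-fold higher among all listed features, with Mthfd2 no longer higher after the lowering by 0.41. Fgf21, a hormone released under metabolic stress, was at a siCon log2 FPKM of 1.89 and a siH19 log2 FPKM of 3.61, or 3.29-fold higher. Chac1, which degrades glutathione, was at 1.84 and 2.84, and the mitochondrial folate enzyme Aldh1l2 was at 0.99 and 1.91. On the lower side, Sesn2, a leucine sensor, was at 2.41 and 1.86, and Gpt2, which makes alanine, was at 5.96 and 5.39. Atf4 itself is not among the listed features. The motif TGATGNAA, searched as an ATF4 site on both strands, was in 0 of the 35 promoter windows of members. It was in 3.18% of the windows of protein-coding genes. Slc7a5 has no window, so its promoter was not searched.

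**Figure D4:**
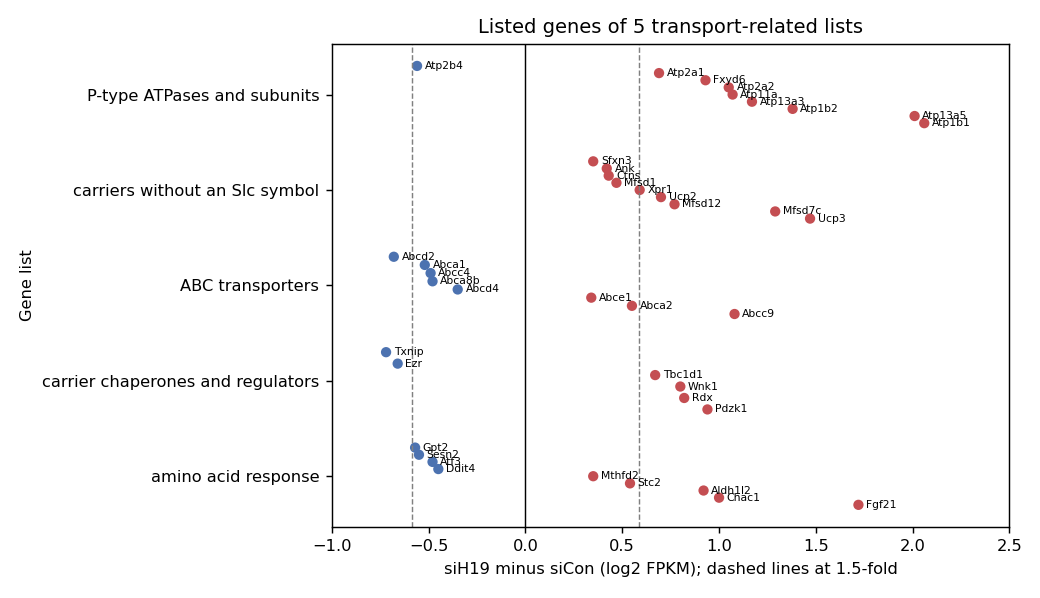
Difference between siH19 and siCon (x axis, log2 FPKM) of the listed genes given by name in 5 transport-related lists (y axis), red where higher and blue where lower, with dashed lines at 1.5-fold. Of the P-type ATPases and subunits drawn, all but Atp2b4 lie to the right of the upper line, whereas ABC transporters and genes of the amino acid response lie on both sides.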

How the data were processed

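RNA-seq libraries of siCon- and siH19-transfected C3H myotubes (3 per group) were mapped to mm10 with TopHat (the labels name TopHat2 2.0.7 and the TopHat app 1.0.0), and groups were compared with Cuffdiff 2.1.1, per the labels and the methods of the study. The authors deposited log2 FPKM values, 1 per group for the 3 libraries together and rounded to 2 decimals, for features called as different only. The other columns, the authors' fold changes and q-values, were not used. Differences were computed as siH19 minus siCon, so that rounding alone can move a difference by 0.01. Counts used cut-offs of 1.5-fold and 2-fold over the 3019 listed features. No test, error or depth could be computed.

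Deposited loci count their first base as 0, and positions are printed here with 1 added to the start. Annotation was GENCODE for GRCm38 (mm10), and promoters were RefSeq windows of GRCm38.p6. Of the SLC members, 2 enter the counts only and are not reported here by name, as is a gene of another list. All others are accounted for, with locus and fold given in full for those past 1.5-fold. From the other lists, at most the 6 listed members with the largest difference are given values, except that Atp2a2, Atp2b4, Abce1, Chrna1 and neighbours such as P2rx6 and Ankrd52 were chosen after their values were seen. Members, substrate groups and lists were chosen with earlier results of these data known. Alternatives were a 2-fold or no cut-off, a filter at a log2 FPKM of 0, a pseudocount of 1 FPKM, a shift by the median and leaving out scaffolds or features with several symbols. Python 3.11.15, numpy 2.4.6, pandas 2.3.3 and matplotlib 3.10.9 were used, and counting was tested on simulated data.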

Additional observations from a re-analysis of the deposited data

How the results depend on the processing

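The counts follow the cut-off and the scale. With a 2-fold cut-off, 6 SLC features were higher and 1 lower (511 and 184 of all listed features), and without a cut-off 18 and 19 (1896 and 1123). With a pseudocount of 1 FPKM, which shrinks the differences of low features, 7 were higher and 3 lower (673 and 203 of all), with a median of -0.27. With each difference lowered by 0.41, 6 were higher and 19 lower (511 and 1123 of all), with a median of -0.75. A filter at a log2 FPKM of 0 in the higher group (9 higher, 8 lower), leaving out the scaffolds (10 and 7) and leaving out features with several symbols (11 and 8) kept both SLC counts within 1.5 times and the median at -0.34. No paired analysis was possible because the deposited columns hold 1 pooled value per group. For the same reason no library could be left out in turn. Depth and the spread between libraries limit these statements to an unknown degree.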

Other observations

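ABC transporters, which pump substrates with ATP and are not solute carriers, are represented by 8 of 50 annotated genes. Of these 8, 3 were higher and 5 lower in siH19, with 1 in each direction by at least 1.5-fold, beside 62.8% higher and 37.2% lower among all listed features. Abcc9, the regulatory subunit of the ATP-sensitive potassium channel of muscle, was at a siCon log2 FPKM of -1.49 and a siH19 log2 FPKM of -0.41. Abca1, which exports cholesterol, was at 2.93 and 2.41, and Abcd2, a peroxisomal carrier of fatty acids, was at -0.59 and -1.27. Abcc9 and Abcd2, the members past 1.5-fold, were below 1 FPKM in both groups. Abce1, which recycles ribosomes and transports nothing, was at 6.34 and 6.68, and lowered by 0.41 it was no longer higher.

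Within 100 kb of 24 of the 37 SLC features lies another listed feature with a symbol, in 41 pairs. The direction was the same in 26 pairs and opposite in 15. The pairs named here were chosen after their values were seen. Slc19a2, lower by a log2 difference of -0.67, lies 42229 bp from Atp1b1, which was higher by 2.06. Nearer to Slc19a2 lie 4930455F23Rik, at -0.72 (10213 bp), and Blzf1, at 0.35 (24415 bp). Slc12a7 and Slc6a19 lie 53771 bp apart on chromosome 13 and differed by 0.54 and -0.41. Slc4a3, at 1.03, lies 39258 bp from Obsl1, a gene of the muscle cytoskeleton at 1.04. Slc2a6, at -0.53, lies 28963 bp from Tmem8c, the gene of the fusion protein myomaker, at 0.74. These pairs are values only, and no test was made of position.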
